A study of Mus musculus with 22 samples.

Results

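Matrix metalloproteases, ADAMTS proteases and their tissue inhibitors were examined in NIH/3T3 cells, an established mouse fibroblast line. The set was chosen by gene symbol and named 9 genes: Adamts1, Adamts2, Adamts5, Mmp2, Mmp3, Mmp14, Timp1, Timp2 and Timp3. The table of 11208 genes held 8 of the 9; Mmp3 was not among them and is not analysed here. All cells held a construct that doxycycline switches on. In the E2F1 line it encodes E2F1, a transcription factor; in the EV line it is an empty vector. They were kept for 48 h in 0.25% serum and then received 500 ng/ml doxycycline; the EV line alone was also given 10% serum. The 11 groups were each line after 0, 2, 6 and 12 h with doxycycline, and EV cells after 2, 6 and 12 h with serum, with 2 libraries of polyadenylated RNA per group. The EV libraries at 0 h were the start point of both EV series, so the EV doxycycline and serum comparisons share them. The labels do not say whether either line is a clone or a pool, nor whether replicates were separate cultures, so p-values measure only the spread between these libraries. Values are the authors' normalized counts, and changes are differences of log2(value + 1). A gene was called higher or lower where its adjusted p (limma, Benjamini-Hochberg over all 11208 genes of a comparison) was at most 0.05.

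Fibroblasts build the extracellular matrix and also secrete the enzymes that cut it. ADAMTS proteases are secreted zinc enzymes: Adamts1 and Adamts5 encode proteases that cleave the large proteoglycans aggrecan and versican, and Adamts2 encodes the enzyme that removes the amino-terminal propeptide of fibrillar procollagens. Among the matrix metalloproteases, Mmp2 encodes gelatinase A, which is secreted as a proenzyme, and Mmp14 encodes MT1-MMP, a membrane-anchored collagenase that activates it. TIMP proteins bind the active site of these enzymes. TIMP-1 inhibits most soluble metalloproteases but MT1-MMP poorly, TIMP-2 also serves as the adaptor through which MT1-MMP activates proMMP-2, and TIMP-3 binds to the matrix and inhibits several ADAMTS proteases, ADAMTS-5 among them. Serum given to resting fibroblasts starts the transcription of growth factor response genes, and E2F1 activates genes of DNA replication.

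No expression result rests on promoter sequence, and the promoters of 3 genes are shown as background. They are those of Adamts1, which serum lowered, Timp1, which serum raised most in the set, and Adamts2, which alone held an E2F motif. Each runs from 250 bases before to 50 bases after the RefSeq start site (GRCm38.p6), 5′ to 3′ on the gene's strand, with motif matches in capitals. The promoter of Adamts1 lies at chr16:85803064-85803363 (minus strand), that of Timp1 at chrX:20869916-20870215 (plus strand) and that of Adamts2 at chr11:50601835-50602134 (plus strand).
Adamts1: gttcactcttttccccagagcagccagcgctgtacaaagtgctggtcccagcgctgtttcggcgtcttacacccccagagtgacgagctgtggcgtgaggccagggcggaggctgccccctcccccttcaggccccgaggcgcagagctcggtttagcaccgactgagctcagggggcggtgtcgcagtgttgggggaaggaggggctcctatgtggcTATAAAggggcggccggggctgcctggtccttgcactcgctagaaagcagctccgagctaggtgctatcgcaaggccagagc
Timp1: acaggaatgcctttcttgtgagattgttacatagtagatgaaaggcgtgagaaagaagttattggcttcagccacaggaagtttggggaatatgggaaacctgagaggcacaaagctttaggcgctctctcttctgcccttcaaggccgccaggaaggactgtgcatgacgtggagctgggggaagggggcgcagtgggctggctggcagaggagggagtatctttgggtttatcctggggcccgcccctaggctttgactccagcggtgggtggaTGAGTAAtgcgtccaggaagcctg
Adamts2: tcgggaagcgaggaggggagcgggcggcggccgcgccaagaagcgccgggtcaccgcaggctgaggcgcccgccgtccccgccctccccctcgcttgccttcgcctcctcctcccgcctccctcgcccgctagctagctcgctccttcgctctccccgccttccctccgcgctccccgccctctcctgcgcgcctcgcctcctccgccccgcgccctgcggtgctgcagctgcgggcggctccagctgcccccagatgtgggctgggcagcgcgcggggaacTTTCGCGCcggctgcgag

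Both strands were searched for the TATA box (TATAAA), the AP-1 site (TGAGTCA), the E2F site (TTTCGCGC or TTTGGCGC) and CArG, the site of serum response factor. TGAGTAA, a variant of the AP-1 site, was added after the Timp1 sequence had been read. Promoters were at hand for 6 of the 8 genes: Adamts1, Adamts2, Mmp14, Timp1, Timp2 and Timp3. Adamts1 held TATAAA 32 bases before its start site, Timp1 held TGAGTAA 26 bases after it, and Adamts2 held TTTCGCGC 32 bases after it. The promoters of Mmp14, Timp2 and Timp3 held none of the 5 motifs. Among 32851 mouse promoters of this length, 13.6% held TATAAA, 5.20% AP-1, 2.68% the variant, 0.813% E2F and 1.63% CArG. A match is a run of letters and not a measured binding site.

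E2f1 was read as a check of the labels in the E2F1 line. Its libraries in the E2F1 line had 1637 and 1703 normalized counts at 0 h, 1535 and 1755 at 2 h, 3602 and 3806 at 6 h, and 2683 and 2845 at 12 h. The level was thus above 0 h in both libraries at 6 and 12 h, by 1.15 and 0.73 on the log2 scale (adjusted p = 9.612e-08 and 1.647e-05), and not called at 2 h (log2 change -0.02). The EV line under doxycycline stayed between 1307 and 1655 at all times. Serum took it to a mean of 771 at 2 h and to a log2 change of 1.43 at 12 h. The mean of 4431 at 12 h of serum was above the 3704 of the E2F1 line at 6 h. E2f1 level alone thus does not mark the induced libraries. Counts per gene do not separate RNA of the construct from that of the cell's own gene. Ddx3y, a Y-linked gene outside the set whose level differed between the lines, went against the line labels in part. It had 580 and 521 normalized counts in the E2F1 line at 0 h but 9 and 4 in the EV line, yet 103 and 71 in EV doxycycline 2 h and 132 and 170 in EV serum 2 h. Later EV libraries were above 0 h as well, with 31 and 18 at 6 h of doxycycline, 48 and 35 at 6 h of serum and 29 and 19 at 12 h of serum; those at 12 h of doxycycline had 9 and 4. The E2F1 libraries at 2 h had 329 and 316. The 2 h libraries lay furthest from the 0 h libraries of their line, and later times were also fitted without them. The part of whatever sets these Ddx3y levels in the results was not tested. At 0 h none of the 8 genes differed between the lines (limma, 0 called; 1 at an unadjusted p under 0.05), against 8.86% of all genes called higher and 6.17% lower in the E2F1 line (12% and 4.675% with equal totals). Their differences ran from -0.34 (Timp3) to 0.09 (Adamts5). Totals per library ran from 34014608 to 46057140 normalized counts, highest in the serum 2 h libraries at 45073651 and 46057140. All 8 fibroblast markers were in the table, with a summed level of 417328 to 1025724 per library; none of 5 epithelial and 4 endothelial markers was in it, and of 5 macrophage markers only Csf1r was, at 33 to 735.

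All 8 genes were strongly expressed: their means over all libraries stood at or above those of 90.2% (Adamts2) to 99.4% (Timp2) of genes. Per kilobase of exon, the EV line at 0 h had Timp2 on top at 11473 ± 227 normalized counts per kb (SD, n = 2). Mmp2 followed at 5629 ± 760, Adamts1 at 4553 ± 1011, Timp1 at 3261 ± 164, Mmp14 at 2761 ± 326, Timp3 at 2473 ± 147, Adamts5 at 1131 ± 217 and Adamts2 at 682 ± 109. Mmp2 and Adamts1 overlapped between libraries there, as did Mmp14 and Timp3; the other neighbours in the order did not. Over the 22 libraries, Adamts5 varied most, from 168 to 15410 normalized counts (91.7-fold), then Adamts1 (32.4-fold), Timp1 (16.3-fold) and Timp3 (10.2-fold). Mmp14 (3.32-fold), Adamts2 (2.85-fold), Timp2 (1.91-fold) and Mmp2 (1.77-fold) moved far less.

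**Figure D1:**
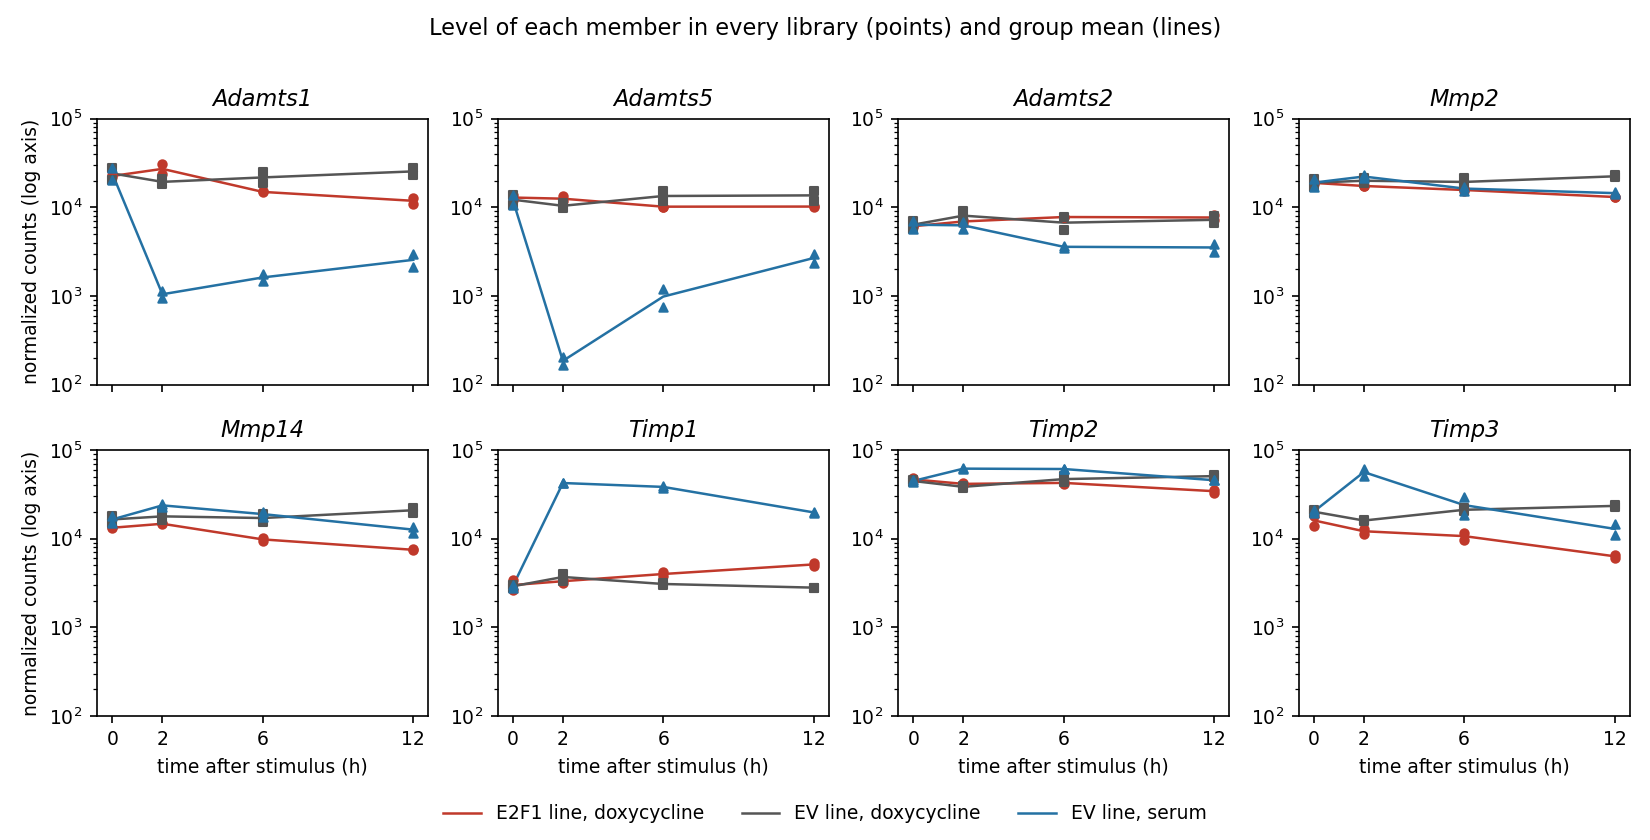
Normalized counts (log axis) of the 8 genes against hours of stimulus, with a point per library and lines through group means, for the E2F1 line with doxycycline, the EV line with doxycycline and the EV line with serum. Under serum, Adamts5 drops to 168 and 202 at 2 h and Timp1 climbs to 42603 and 42195, while the EV doxycycline lines stay nearly flat.

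Serum lowered the ADAMTS genes, Adamts2 from 6 h on, and raised Timp1 at all 3 times. At 2 h, 5 of the 8 genes were called higher (Timp1, Timp3, Mmp14, Timp2 and Mmp2) and 2 lower (Adamts1 and Adamts5), where 37.5% of all genes were called higher and 33.5% lower. At 6 h, 2 were higher (Timp1 and Timp2) and 3 lower (Adamts1, Adamts5 and Adamts2), against 36.5% and 31% of all genes. At 12 h, 1 was higher (Timp1) and 6 lower (Adamts1, Adamts5, Adamts2, Timp3, Mmp2 and Mmp14), against 36% and 29.7%. The median log2 change of the 8 was 0.35, -0.01 and -0.52 at 2, 6 and 12 h, beside 0.03, 0.03 and 0.05 over all genes. The early split depended on scaling. At 2 h quantile normalization gave 2 of the 8 higher and 4 lower, with a median of -0.15. Of all genes 32.32% were then higher and 36.72% lower. Equal totals gave 2 and 3 with a median of -0.03, where 23.3% of all genes were higher and 52.7% lower. At 6 h equal totals gave 2 and 4, against 26% and 42.58% of all genes. The background is large, so the counts alone say little about the set; the sizes are given below.

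Adamts5, the aggrecanase gene, had 13864 and 10549 normalized counts in the EV line at 0 h, 168 and 202 at 2 h of serum, 758 and 1208 at 6 h, and 2367 and 2994 at 12 h. Every serum library lay below every 0 h library, and the 2 h mean was 1.52% of the 0 h mean, rising to 8.05% and 21.96% at 6 and 12 h. On the log2 scale it changed by -6.03 ± 0.19, -3.66 ± 0.19 and -2.18 ± 0.19 (SE; adjusted p = 2.322e-14, 1.942e-11 and 1.829e-08). Adamts1 had 27928 and 20351 at 0 h, 941 and 1148 at 2 h, 1465 and 1768 at 6 h, and 2148 and 2962 at 12 h. Here too the serum libraries lay far below 0 h, at 4.33%, 6.70% and 10.6% of its mean. The log2 change was -4.52, -3.89 and -3.24 (SE 0.18; adjusted p = 3.115e-13, 5.956e-12 and 1.183e-10). From 2 to 12 h of serum both genes rose again, Adamts5 by 3.85 ± 0.19 and Adamts1 by 1.28 ± 0.18 (adjusted p = 1.414e-11 and 6.252e-06), without reaching the 0 h range. In the fit without the 2 h libraries, both genes remained called at 6 and 12 h. The size of a change cannot move in that fit, since it is a difference of group means. Both genes lie on the minus strand of chromosome 16 (GRCm38), Adamts1 at chr16:85793827-85803113 and Adamts5 at chr16:85856173-85901828, 53.1 kb apart. Fewer cells of a kind and less RNA per cell cannot be told apart in bulk RNA.

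Adamts2, the procollagen N-proteinase gene, was called lower from 6 h on. It had 7086 and 5644 normalized counts at 0 h, 5655 and 6865 at 2 h of serum, 3706 and 3460 at 6 h, and 3171 and 3874 at 12 h. The 2 h libraries overlapped 0 h, and those at 6 and 12 h lay below it. The log2 changes were -0.02 (not called), -0.82 and -0.85 (SE 0.15; adjusted p = 0.9093, 0.0001347 and 0.0001012). With values scaled to equal totals the 2 h change was -0.40 and with quantile normalization -0.43, and both were then called lower (adjusted p = 0.02338 and 0.0168).

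Timp1 rose with serum in every library. It had 2793 and 2999 normalized counts at 0 h, 42603 and 42195 at 2 h, 36970 and 39676 at 6 h, and 19414 and 20082 at 12 h. That is 14.6-fold, 13.2-fold and 6.82-fold the 0 h mean. On the log2 scale Timp1 changed by 3.87, 3.73 and 2.77 (SE 0.11; adjusted p = 7.289e-15, 2.896e-14 and 3.642e-12). The level fell between 2 and 12 h by 1.10 ± 0.11 on the log2 scale (adjusted p = 6.485e-08) and stayed above all unstimulated libraries. Timp1 also remained called at 6 and 12 h in the fit without the 2 h libraries, where the size of these changes cannot move.

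Timp3, the matrix-bound inhibitor, rose early and then fell. It had 19291 and 20982 normalized counts at 0 h, 61645 and 51005 at 2 h of serum, 18334 and 29437 at 6 h, and 11040 and 14715 at 12 h. Both 2 h libraries lay above 0 h, the 6 h libraries fell on either side of it, and both 12 h libraries lay below. The log2 changes were 1.48 ± 0.18, 0.21 ± 0.18 (not called) and -0.66 ± 0.18 (adjusted p = 5.546e-07, 0.3074 and 0.003237). The 6 h value turned to -0.10 with quantile normalization, -0.01 with equal totals and -0.13 without serum 6 h replicate 2; without serum 6 h replicate 1 it was 0.55 and called (adjusted p = 0.008951). The 12 h fall was -0.45 and no longer called without serum 12 h replicate 1 (adjusted p = 0.06972). Between 2 and 12 h Timp3 fell by 2.14 on the log2 scale (adjusted p = 8.793e-09). Of its exon bases, 21.3% are shared with Syn3 on the opposite strand, and use of strand in counting is not given in the sources used here.

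Timp2 had 45324 and 44074 normalized counts at 0 h, 62832 and 60340 at 2 h of serum, 60970 and 61042 at 6 h, and 45511 and 45665 at 12 h. The 2 and 6 h libraries lay above 0 h, and those at 12 h did so only narrowly. Timp2 changed by 0.46, 0.45 and 0.03 (SE 0.08; adjusted p = 8.499e-05, 0.0001377 and 0.7799). The 2 h change depended on scaling: it was 0.04 with quantile normalization and 0.09 with equal totals (adjusted p = 0.6998 and 0.3404).

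Mmp14 had 17827 and 15078 normalized counts at 0 h, 22961 and 24469 at 2 h of serum, 20068 and 17756 at 6 h, and 13639 and 11608 at 12 h. The libraries lay above 0 h at 2 h, overlapped it at 6 h and lay below it at 12 h. The log2 changes were 0.53, 0.20 (not called) and -0.38 (SE 0.12; adjusted p = 0.0004512, 0.1269 and 0.007375), and the 2 h change was -0.01 with quantile normalization and 0.16 with equal totals, neither called. The 6 h change was called without EV 0 h replicate 1 (0.32), and turned to -0.16 with quantile normalization and -0.01 with equal totals. The 12 h call was lost without EV 0 h replicate 1 (-0.26) or without serum 12 h replicate 2 (-0.27). Mmp2, whose proenzyme MT1-MMP activates, had 20789 and 17164 at 0 h, 21498 and 23007 at 2 h, 15471 and 17089 at 6 h, and 14072 and 14848 at 12 h. Its libraries lay just above 0 h at 2 h and below it at 6 and 12 h. The log2 changes were 0.24, -0.22 (not called) and -0.39 (SE 0.10; adjusted p = 0.04638, 0.06827 and 0.002863). The early rise reversed to -0.30 with quantile normalization, where Mmp2 was called lower (adjusted p = 0.008276), and to -0.14 with equal totals, and it lost its call without EV 0 h replicate 2 (0.10), serum 2 h replicate 1 (0.28) or serum 2 h replicate 2 (0.19). The 6 h fall was called without EV 0 h replicate 2 (-0.35, adjusted p = 0.01141), and with quantile normalization (-0.56) or equal totals (-0.43). The 12 h fall lost its call without EV 0 h replicate 1 (-0.25, adjusted p = 0.0703). Both genes fell between 2 and 12 h, by 0.91 (Mmp14) and 0.62 (Mmp2) on the log2 scale (adjusted p = 1.771e-06 and 3.594e-05).

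Across that interval 2 of the 8 genes rose and 6 fell, while 31.7% of all genes were called higher and 31.7% lower (49.42% and 17.87% with equal totals, which gave 2 and 5 of the 8). Adamts2 fell by 0.83 and Timp2 by 0.43 on the log2 scale; the Timp2 value was -0.04 with quantile normalization and -0.14 with equal totals, neither called. Equal totals moved the median of all genes by -0.37, -0.21 and -0.08 at 2, 6 and 12 h of serum and by 0.29 between 2 and 12 h, so the small changes above are relative to the authors' scaling.

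Doxycycline alone in the EV line left the set without a call. At 2 h 0 of 8 were called by limma (3 at an unadjusted p under 0.05), where 4.93% of genes were called higher and 2.43% lower, and changes ran from -0.33 (Timp3) to 0.34 (Timp1). Timp1 had 3350 and 4029 there, both above 0 h; it was called without EV doxycycline 2 h replicate 1 (0.48, adjusted p = 0.04138), with quantile normalization (0.33) and with equal totals (0.36). At 6 h 0 of 8 were called (0 at an unadjusted p under 0.05; background 0.134% and 0%), with changes from -0.15 (Adamts1) to 0.14 (Adamts5). At 12 h 0 of 8 were called (3 unadjusted; background 0.749% and 3.42%), with changes from -0.05 (Timp1) to 0.35 (Mmp14). Without EV 0 h replicate 1, 2 genes were called at 12 h, Mmp14 among them at 0.47 (adjusted p = 0.04232). Serum was also compared with doxycycline at the same hour, which is free of the 0 h libraries. At 2 h 4 of 8 were higher with serum and 3 lower (background 35% and 32.1%), at 6 h 2 and 4 (35.8% and 30%), and at 12 h 1 and 6 (37.9% and 32.5%). With equal totals these were 3 and 4 at 2 h (18.86% and 53.98%) and 1 and 4 at 6 h (25.77% and 41.3%). Adamts5 differed by -5.81, -3.80 and -2.34, Adamts1 by -4.22, -3.74 and -3.33, and Timp1 by 3.53, 3.64 and 2.82 on the log2 scale at 2, 6 and 12 h, all called.

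**Figure D2:**
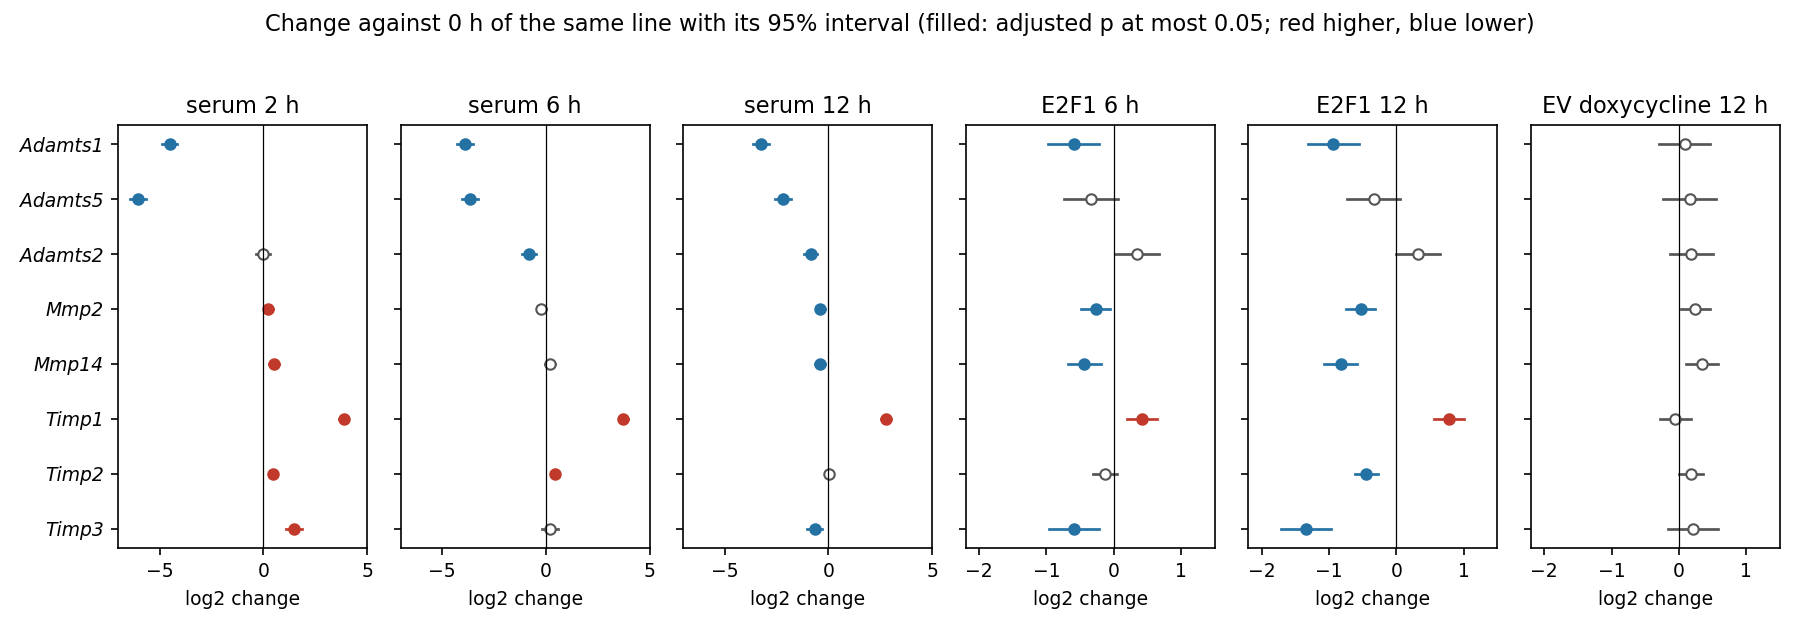
Log2 change against 0 h of the same line for each gene, with its 95% interval, after serum in the EV line and doxycycline in each line; filled points passed an adjusted p of 0.05, and the serum panels have a wider axis. Adamts1 and Adamts5 fall and Timp1 rises at every serum time, Timp3 falls most after 12 h of E2F1 (-1.34), and no gene is called in the EV line at 12 h of doxycycline.

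In the E2F1 line no gene of the set was called at 2 h of doxycycline, when E2f1 RNA had not risen. By 12 h Timp1 was higher and 5 of the 8 were lower. At 2 h 0 of the 8 genes were called by limma (1 at an unadjusted p under 0.05), where 0.865% of all genes were called higher and 0.99% lower; changes ran from -0.40 (Timp3) to 0.26 (Adamts1). With only the 2 groups in the fit, Timp3 was called (adjusted p = 0.04363). At 6 h 1 was higher (Timp1) and 4 lower (Timp3, Adamts1, Mmp14 and Mmp2), against 28.8% and 22.9% of all genes; quantile normalization gave 0 higher and 5 lower (23.71% and 34.08% of all genes) and equal totals 1 and 6 (23.94% and 33.73%). At 12 h 1 was higher (Timp1) and 5 lower (those 4 and Timp2), against 31.8% and 29.7%. The median log2 change of the 8 was -0.30 at 6 h and -0.49 at 12 h, beside -0.03 and -0.02 over all genes. The count at 6 h was 3 without E2F1 0 h replicate 1, and 2 without E2F1 6 h replicate 1 or E2F1 0 h replicate 2; at 12 h no call was lost by leaving out any 1 library.

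Timp3 fell furthest. It had 14053 and 18086 normalized counts at 0 h, 11285 and 12934 at 2 h, 9705 and 11634 at 6 h, and 6022 and 6606 at 12 h of doxycycline in the E2F1 line. All later libraries lay below both 0 h libraries, and the 12 h mean was 39.3% of that at 0 h. Its change was -0.59 ± 0.18 (log2, SE) at 6 h, with an adjusted p of 0.0101, and -1.34 ± 0.18 at 12 h, with one of 3.541e-06. The 6 h call was lost without E2F1 6 h replicate 1 (-0.45) or E2F1 0 h replicate 2 (-0.40). Adamts1, the versican-cleaving protease, had 23256 and 21851 at 0 h, 30517 and 23799 at 2 h, 14749 and 15109 at 6 h, and 10835 and 12842 at 12 h. Its libraries lay above 0 h at 2 h and below it at 6 and 12 h. Its change was -0.59 ± 0.18 at 6 h, with an adjusted p of 0.01007, and -0.93 ± 0.18 at 12 h, with one of 0.0001971. The 6 h call was lost without E2F1 0 h replicate 1 (-0.55) or E2F1 6 h replicate 1 (-0.58).

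Mmp14 had 13471 and 13044 normalized counts at 0 h, 9330 and 10262 at 6 h, and 7369 and 7580 at 12 h of E2F1. The 12 h libraries lay below those at 6 h, and those below 0 h. Its log2 change was -0.44 and -0.83 (SE 0.12; adjusted p = 0.004104 and 6.647e-06). Mmp2 had 18555 and 19201 at 0 h, 15386 and 15980 at 6 h, and 12972 and 13172 at 12 h, in the same order without overlap. Its log2 changes were -0.27 and -0.53 (SE 0.10; adjusted p = 0.03516 and 0.0001994). The 6 h call of Mmp2 was lost on leaving out any of the 4 libraries (E2F1 0 h replicate 1, -0.29; E2F1 6 h replicate 1, -0.24; E2F1 0 h replicate 2, -0.24; E2F1 6 h replicate 2, -0.30), and in the fit without the 2 h libraries (adjusted p = 0.05216). Timp2 had 44408 and 48771 at 0 h, 41395 and 43666 at 6 h, and 32866 and 35685 at 12 h. Both later pairs lay below 0 h, by -0.13 (not called) and -0.44 (SE 0.08; adjusted p = 0.2061 and 0.0001916); the 6 h change was called with equal totals (-0.25).

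Timp1 was the one member called higher in the fit over all groups. It had 3374 and 2607 normalized counts at 0 h, 4192 and 3779 at 6 h, and 5364 and 4863 at 12 h. Both later pairs lay above 0 h, and the 12 h mean was 1.71-fold that at 0 h. Its log2 change was 0.42 and 0.78 (SE 0.11; adjusted p = 0.002923 and 4.939e-06). The 6 h call was lost with quantile normalization (0.23, adjusted p = 0.05675) and without E2F1 0 h replicate 2 (0.24, adjusted p = 0.09323). Adamts5 had 12066 and 13716 at 0 h, 10163 and 10173 at 6 h, and 10159 and 10233 at 12 h. Its log2 changes were -0.34 and -0.34 (95% interval -0.74 to 0.06 and -0.73 to 0.06), not called; with quantile normalization they were -0.57 and -0.49, and called, and the 6 h change was -0.46 and called with equal totals. Adamts2 had 6225 and 6013 at 0 h, 7744 and 7797 at 6 h, and 7191 and 8153 at 12 h. All 4 later libraries lay above 0 h, by 0.34 and 0.32 (SE 0.15; adjusted p = 0.06959 and 0.07707), not called over all groups. In a limma fit of the 2 groups alone, Adamts5 and Adamts2 were called at both times. The adjusted p was 0.005934 and 0.003832 for Adamts5, and 0.003047 and 0.004749 for Adamts2. In the EV line with doxycycline Adamts2 changed by 0.34 at 2 h, 0.07 at 6 h and 0.19 at 12 h, not called. A part of its E2F motif in these values was not tested.

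The doxycycline change of the E2F1 line was then tested against that of the EV line, which takes out the change seen in the EV line. A response to doxycycline or time that differs between the lines cannot be told apart from E2F1 here. At 2 h 0 of 8 differed (limma; 1 at an unadjusted p under 0.05; background 0.0535% higher and 0.0892% lower). At 6 h 2 were lower, Timp3 by 0.66 and Mmp14 by 0.49 on the log2 scale (adjusted p = 0.0496 and 0.02687; background 22.2% higher and 12.3% lower). Quantile normalization gave 0 higher and 4 lower (18.45% and 23.05% of all genes), and equal totals the same counts (18.75% and 20.08%). Timp3 lost this call without any of 6 libraries: E2F1 6 h replicate 1 (-0.53), E2F1 0 h replicate 2 (-0.47), EV 0 h replicate 1 (-0.60) or 2 (-0.72), and EV 6 h replicate 1 (-0.61) or 2 (-0.71). It also lost it without the 2 h libraries (adjusted p = 0.0733). Mmp14 lost it without E2F1 0 h replicate 1 (-0.47) or 2 (-0.51), E2F1 6 h replicate 1 (-0.42), EV 6 h replicate 1 (-0.34) or EV 0 h replicate 2 (-0.37). The other 6 were not called at 6 h: Timp1 at 0.34 (0.52 and called without E2F1 0 h replicate 1), Adamts2 at 0.28, Adamts1 at -0.45, Adamts5 at -0.48, Timp2 at -0.20 and Mmp2 at -0.29. Mmp2 was called without EV 0 h replicate 1 (-0.43) or EV 6 h replicate 2 (-0.45).

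At 12 h the difference was called for 6 of 8 genes, 1 higher and 5 lower, beside 27.3% and 23.3% of all genes; quantile normalization gave 1 and 6, beside 23.72% and 30.84%. Timp3 differed by -1.55 ± 0.25, Mmp14 by -1.17 ± 0.16, Adamts1 by -1.02 ± 0.25, Mmp2 by -0.77 ± 0.14 and Timp2 by -0.62 ± 0.12. Timp1 differed by 0.83 ± 0.15 (adjusted p = 0.00017), and the adjusted p of the 5 others ran from 1.057e-05 (Mmp14) to 0.002573 (Adamts1). In the EV line at 12 h of doxycycline Timp3 had 22578 and 24202 normalized counts and Mmp14 22264 and 19527. These libraries lay well above the E2F1 libraries of the same hour. Part of that gap was there at 0 h, when Timp3 had 19291 and 20982 in the EV line against 14053 and 18086. Mmp14 then had 17827 and 15078 against 13471 and 13044. The differences above are of changes from 0 h of each line. Timp1 had 2798 and 2795 in the EV line at 12 h of doxycycline, below the E2F1 libraries. Adamts5 (-0.50, 95% interval -1.06 to 0.07) and Adamts2 (0.14, 95% interval -0.32 to 0.60) were not called. Adamts5 was called with quantile normalization (-0.64), and Adamts2 turned to -0.07 with it and to -0.03 without EV 0 h replicate 1. No call of the 6 was lost by leaving out any 1 library or the 2 h libraries.

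The change after 12 h of doxycycline in the E2F1 line was compared with that after 12 h of serum in the EV line. The 2 arms also differ in line and in doxycycline, which the serum arm did not receive. These cannot be told apart from E2F1 in this comparison. Of the 8 genes 3 were higher with E2F1 and 4 lower, beside 25% and 23.8% of all genes. The ADAMTS genes made up the first group: Adamts1 by 2.31 ± 0.25, Adamts5 by 1.85 ± 0.27 and Adamts2 by 1.18 ± 0.22 (adjusted p = 9.792e-07, 2.001e-05 and 0.0002414). Timp1 differed by -1.99 ± 0.15, Timp2 by -0.47 ± 0.12, Timp3 by -0.68 ± 0.25 and Mmp14 by -0.44 ± 0.16 (adjusted p = 1.304e-08, 0.00334, 0.03128 and 0.03076). Timp1 was thus called higher in both comparisons with 0 h, and by less with E2F1. Mmp2 did not pass (-0.14, 95% interval -0.45 to 0.16). Timp3 lost its call without E2F1 12 h replicate 1 (-0.61), E2F1 0 h replicate 2 (-0.50), EV 0 h replicate 1 (-0.62) or serum 12 h replicate 2 (-0.47). Mmp14 lost it without E2F1 0 h replicate 1 (-0.42) or 2 (-0.47), E2F1 12 h replicate 1 (-0.42) or 2 (-0.47), EV 0 h replicate 2 (-0.32) or serum 12 h replicate 1 (-0.33).

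Levels per kilobase show how the make-up of the inhibitor pool moved. At 0 h Timp1 gave 22.4% and 16.6% of the summed level per kb of Timp1, Timp2 and Timp3 in the E2F1 line, and 18.3% and 19.6% in the EV line. Serum took it to 66.9% and 68.6% at 2 h, 69.9% and 69.9% at 6 h, and 62.6% and 62.6% at 12 h. In the E2F1 line it was 39.7% and 35.5% at 12 h of doxycycline, and the EV line with doxycycline had 16.4% and 16.7% then. Timp1 thus passed Timp2 as the largest of the 3 in all 6 serum libraries and in no other library. The share of Timp3 in the E2F1 line was 10.2% and 12.6% at 0 h and 4.86% and 5.25% at 12 h. The summed level per kb of the 3 inhibitors over that of the 5 proteases was 1.04 to 1.32 in the 4 libraries at 0 h. It was 6.50 and 5.82 at 2 h of serum, 6.84 and 7.21 at 6 h, and 4.70 and 4.75 at 12 h. With E2F1 it was 1.55 and 1.52 at 6 h and 1.72 and 1.64 at 12 h, above the 1.06 and 1.18 of the EV line at 12 h of doxycycline. These are ratios of RNA levels over merged exon lengths, given as a description with no test.

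**Figure D3:**
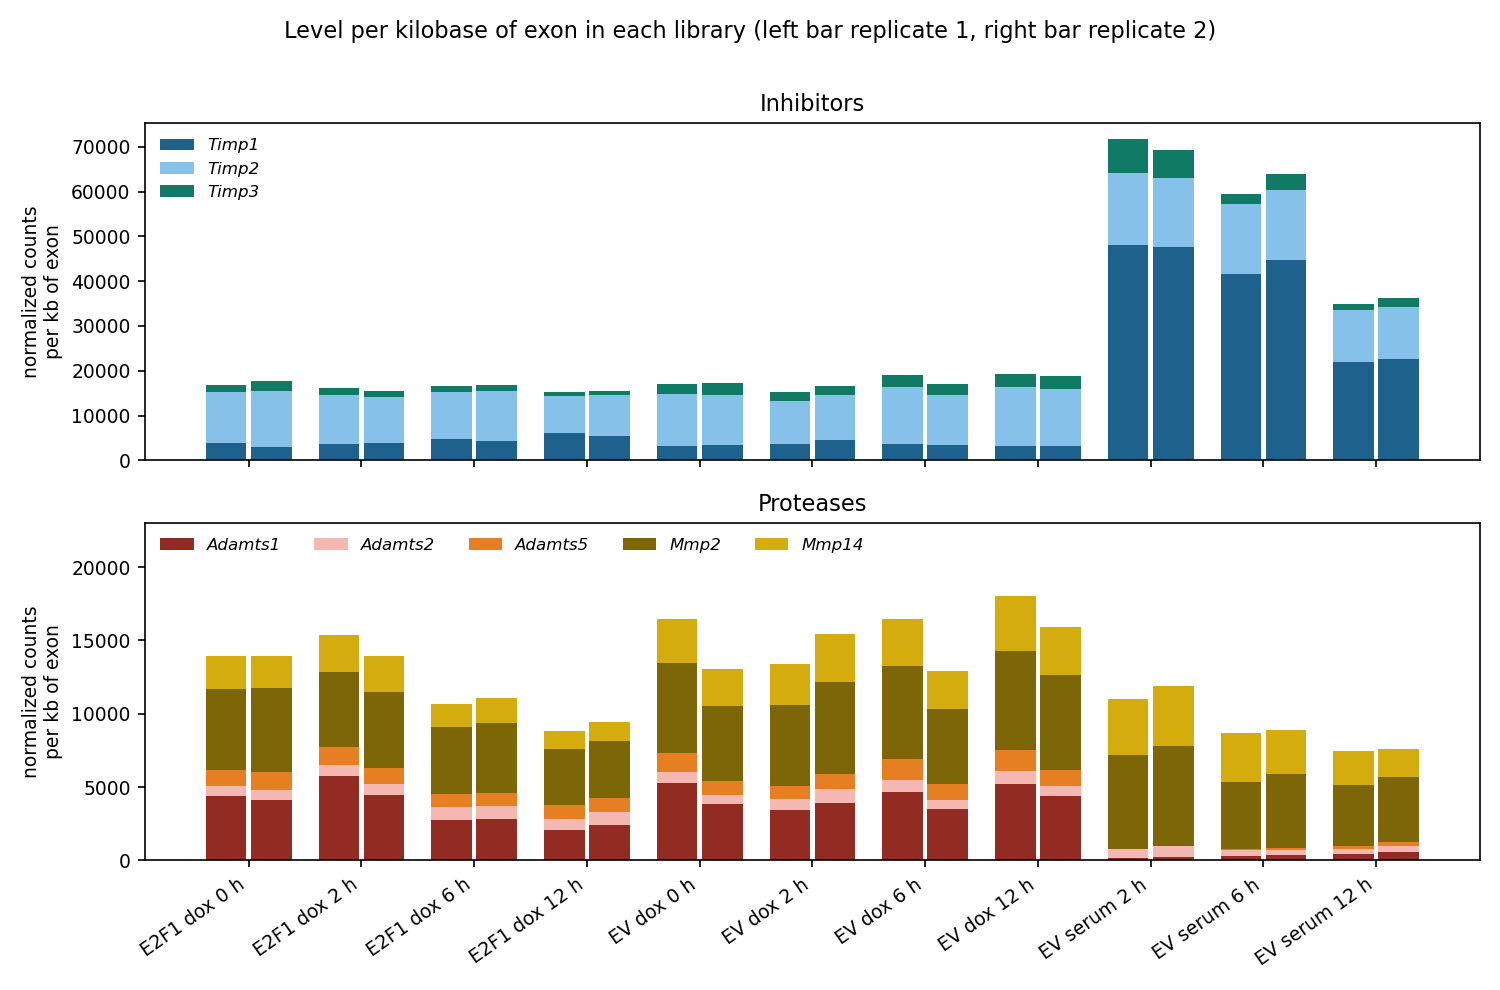
Stacked normalized counts per kb of exon in each of the 22 libraries, the inhibitors above and the proteases below, with paired bars for replicates 1 and 2. Timp1 fills 62.6% to 69.9% of the inhibitor bars in the serum libraries, and Adamts1 and Adamts5 nearly vanish from the protease bars there.

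For each gene the table was searched for the genes whose 11 group means were most alike (Pearson's r over 11 groups, a description in which all genes share the same libraries). Adamts5 was closest to Sesn1 (r = 0.997), Mamstr (0.992) and Fbxo10 (0.989), and Adamts1 to Sorbs3 (0.989), Mospd3 (0.988) and Lpin1 (0.984). Timp1 was closest to Eif2s1 (0.991), Dlst (0.989) and Snrpb2 (0.988), and Timp3 to Cd248 (0.978), Slc22a21 (0.978) and Dlg4 (0.974). Mmp14 was closest to Tubb2b (0.979), Brsk1 (0.977) and Fbrs (0.975), Mmp2 to Meis3 (0.975), Kdm6b (0.964) and Fyn (0.959), Adamts2 to Sfmbt1 (0.974), Cask (0.967) and Atp6v1f (0.966), and Timp2 to Tmem87a (0.960), Arih1 (0.940) and Tm9sf4 (0.936). At least 0.95 was reached by 220 genes for Timp1, 140 for Adamts1 and 112 for Adamts5, but by 1 for Timp2, 3 for Adamts2 and 4 for Mmp2.

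Other genes that act on the matrix were followed as 5 lists. Their counts stand beside the shares of all genes called higher and lower, which were 37.5% and 33.5% at 2 h of serum, 36% and 29.7% at 12 h of serum, and 31.8% and 29.7% at 12 h of E2F1. Of 20 further metalloprotease genes in the table, 4 were called higher and 8 lower at 2 h of serum, with a median log2 change of -0.02. Fewer were lower without EV 0 h replicate 1 or serum 2 h replicate 1. Doxycycline in the EV line at 2 h also called 4 of the 20 higher and 1 lower (all genes, 4.93% and 2.43%). Adam12, Mmp9 and Mmp16 were higher in both. Mmp16 had 88 and 34 normalized counts at 0 h, 115 and 169 with serum and 201 and 316 with doxycycline. The E2F1 line had 311 and 394 at 0 h. The part of the 2 h libraries here was not tested. Serum against doxycycline at 2 h gave 3 higher and 10 lower (35% and 32.1%). At 12 h of serum 5 were higher and 8 lower against 0 h (median -0.32), and with 12 h of E2F1 3 and 8 (median -0.28). Adam12, a membrane-anchored metalloprotease, had 377 and 427 normalized counts in the EV line at 0 h and 10254 and 14999 at 6 h of serum, the largest rise of the list at that time (4.95 on the log2 scale, adjusted p = 9.698e-12). It was the largest rise of the list with E2F1 too, from 545 and 439 at 0 h to 2088 and 1613 at 12 h (1.91, adjusted p = 1.892e-06). Adam19, a relative, went up to 22969 and 26448 at 2 h of serum from 4028 and 3850 (2.65). Adamts6 had 204 and 185 at 12 h of serum against 1273 and 769 (-2.34), and Adamts12 703 and 775 at 12 h of E2F1 against 1886 and 2101 (-1.43).

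Of 8 genes of the plasminogen system and related serine proteases, which activate proenzymes of metalloproteases, 7 were higher at 2 h of serum, where 37.5% of all genes were (median log2 change 1.88, beside 0.03 for all genes). Plaur, the urokinase receptor gene, had 791 and 1002 normalized counts at 0 h and 30027 and 29174 at 2 h (5.05 on the log2 scale). Serpine2, also among the 7, had 231 and 122 in the EV line at 0 h and 523 and 626 at 2 h of serum. At 2 h of doxycycline that line had 656 and 601, and the E2F1 line had 3505 and 3480 at 0 h. The part of the 2 h libraries in the Serpine2 values was not tested. Serum against doxycycline at 2 h called 7 of the 8 higher and 0 lower, beside 35% and 32.1% of all genes. At 12 h of serum 5 were higher and 2 lower (1 lower on leaving out any of the 4 libraries, or the 2 h libraries). With 12 h of E2F1 4 were lower, beside 29.7% of all genes, and the other 4 not called; the E2F1 minus EV difference was called lower for 2 of the 8, beside 23.3%. Plaur changed by -0.98 there, and in the EV line with doxycycline it also fell, by 0.71 on the log2 scale, so that the difference between the lines was -0.27 (adjusted p = 0.4186).

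Of 10 other inhibitors and regulators, 3 were higher and 6 lower at 2 h of serum, and 2 and 5 at 12 h (all genes, 37.5% and 33.5%, then 36% and 29.7%). The 6 became 3 without EV 0 h replicate 1 or serum 2 h replicate 2 and 2 without serum 2 h replicate 1; the 2 became 1 without EV 0 h replicate 1 or serum 12 h replicate 1. Thbs1, which encodes thrombospondin-1, had 13920 and 20100 normalized counts at 0 h and 205720 and 271040 at 2 h of serum (3.82). Reck, a membrane-anchored inhibitor of metalloproteases, had 2402 and 1850 at 0 h and 780 and 689 at 6 h (-1.52), so it moved opposite to Timp1. With 12 h of E2F1 7 of the 10 were lower, beside 29.7% of all genes (median -0.82), and the E2F1 minus EV difference was lower for 6. Thbs1 was at -1.39, but it was at -0.88 in the EV line with doxycycline (adjusted p = 0.1091), and the difference of -0.51 was not called (adjusted p = 0.3262). Of 5 genes for cathepsins and cystatin C, 4 were lower at 12 h of serum (2 without EV 0 h replicate 2), Ctsd at -0.69 and Ctsl at -0.57. At 12 h of E2F1 3 were lower, Ctsd at -0.73 and Ctsl at -0.45, and 1 higher, Ctsz at 0.21, beside 29.7% and 31.8% of all genes. That last call was lost without E2F1 0 h replicate 1, E2F1 0 h replicate 2 or E2F1 12 h replicate 2. The E2F1 minus EV difference was lower for 2 of the 5 and higher for 0; Ctsl was at -0.32 in the EV line with doxycycline, not called, and its difference was -0.13 (adjusted p = 0.6469).

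Among 7 proteoglycan genes, which include substrates of ADAMTS proteases, 6 were lower and 1 higher at 12 h of serum, beside 29.7% and 36% of all genes (median log2 change -1.71). Ogn, which encodes osteoglycin, had 3610 and 2337 normalized counts at 0 h and 209 and 185 at 12 h (-3.88), and Prelp 739 and 333 against 83 and 39 (-3.10). Bgn, the biglycan gene, was the exception with 78773 and 67055 at 0 h and 95836 and 117736 at 12 h (0.55). With 12 h of E2F1 6 were lower, beside 29.7% of all genes, and 1 not called (median -0.84), among them Fmod at -1.54 and Ogn at -1.47; 3 were called without E2F1 0 h replicate 1. Vcan, the gene of versican, a substrate of ADAMTS-1 and ADAMTS-5, had 31440 and 38292 in the EV line at 0 h. At 2 h of serum it had 26347 and 23062 (-0.49), when both protease genes were at their lowest. Vcan was lower at 2 h without serum too, with 27759 and 26042 in the EV line with doxycycline. The E2F1 line had 29372 and 33157 at 0 h and 21368 and 23634 at 2 h. Serum against doxycycline at 2 h called 1 of the 7 proteoglycan genes higher and 0 lower, beside 35% and 32.1% of all genes. Lum, the lumican gene, was higher at 2 h in the EV line both with serum (1.73) and with doxycycline (1.72); it had 2168 and 1938 in the E2F1 line but 578 and 445 in the EV line at 0 h, as Ddx3y differed. The part of the 2 h libraries in the Lum values was not tested.

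**Figure D4:**
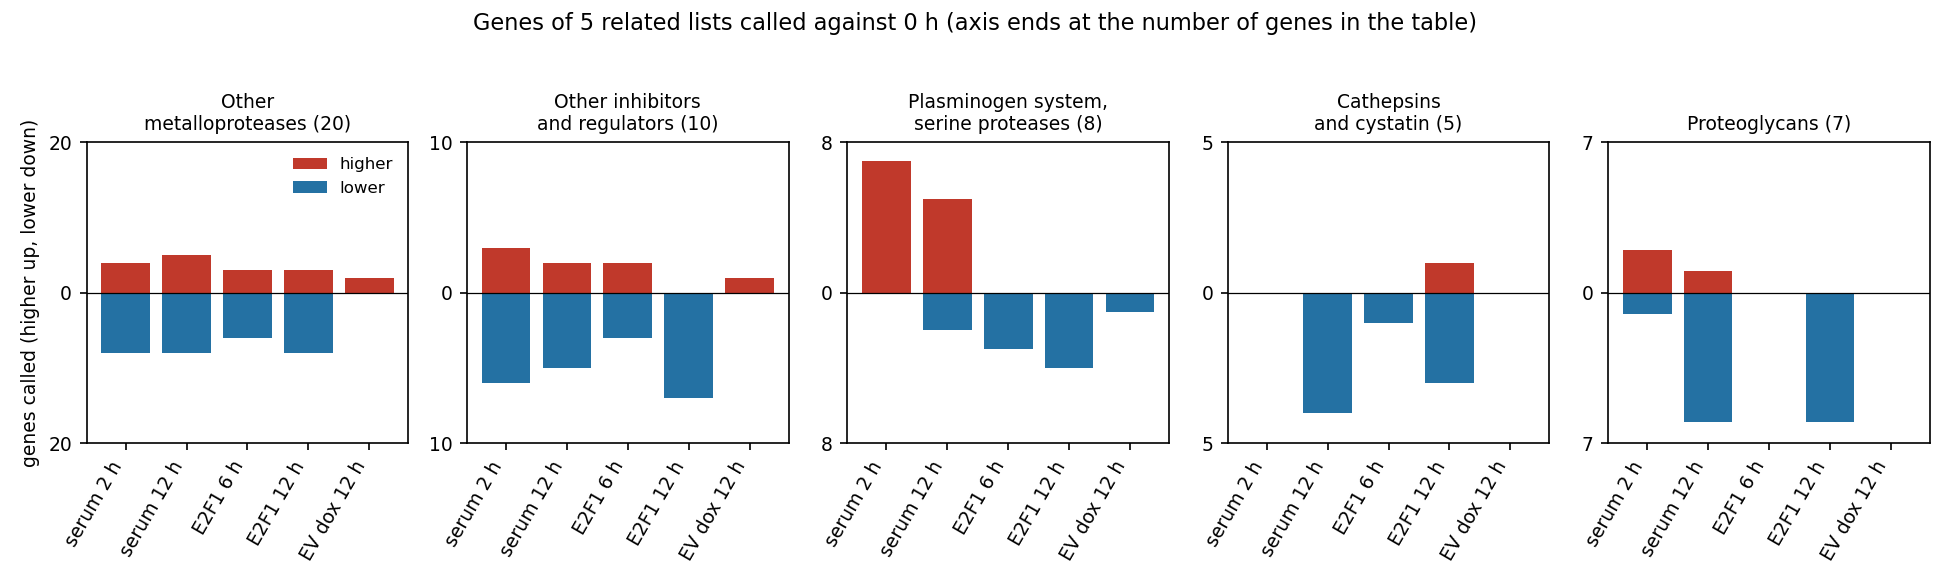
Number of genes called higher (red, upward) and lower (blue, downward) against 0 h of the same line in 5 related lists, with the vertical axis ending at the number of list genes in the table. The plasminogen list has 7 of 8 genes higher at 2 h of serum, and the proteoglycan list has 6 of 7 lower at 12 h of serum and at 12 h of E2F1.

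The authors' deposited tables keep only genes that changed at least about 2 units of log2 either way; 3 of the 8 genes stood in them, in the serum tables alone. In the authors' deposited tables Adamts5 had -6.01, -3.65 and -2.16 at 2, 6 and 12 h of serum, Adamts1 -4.51, -3.88 and -3.22, and Timp1 3.88, 3.74 and 2.80. The values from limma given above were -6.03, -3.66 and -2.18, -4.52, -3.89 and -3.24, and 3.87, 3.73 and 2.77.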

How the data were processed

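RNA from 22 libraries of NIH/3T3 cells was sequenced after polyA selection (paired ends, 150 bp), as the labels' protocols state. The submitters' processing notes name FastQC, Trimmomatic, HISAT2, featureCounts, DESeq2 and mm10; versions and settings are not given in the sources used here. The main table holds normalized counts that the authors had scaled and rounded, so they were treated as a score and no count test was run. The authors' deposited tables give a log2 fold change and an adjusted p-value for each listed gene. Columns were matched to samples by their titles, and 0 columns of per-sample values were left unused.

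The test was limma 3.58.1 (R 4.3.3) on log2(value + 1), with a mean for each of 11 groups over all 22 libraries (11 residual degrees of freedom), empirical Bayes moderation with a trend, Benjamini-Hochberg adjustment over the 11208 genes and a threshold of 0.05. No filter on low values was used. In simulated data for serum at 2 h with few genes changed, limma called 11 of 50 genes changed 1.5-fold, 48 of 50 changed 2-fold, and 11 unchanged genes. Replicate numbers were not taken as pairs, since the labels do not tie them to a shared culture or day and the correlations of same-numbered libraries ran from -0.28 to 0.45. Alternatives were a pseudocount of 8, a mean of at least 500, quantile normalization, equal totals, the replicate block, only the groups compared, p at most 0.01, and leaving out each library or the 2 h doxycycline libraries; leaving out all 2 h libraries was chosen after seeing the data. The genes and lists were chosen with earlier results of these data known. In the lists, up to 2 rises and 2 falls of largest size past the threshold in a comparison were to be named, and for each gene the 3 most alike; not all are described, 1 is not reported here, and Bgn, Lum and Vcan are named beside them, as are E2f1 and Ddx3y, which was chosen after its values were seen. Positions come from GENCODE M21 (GRCm38), which holds 10977 of the 11208 identifiers at the same version; Adamts2 was matched without its version. Tables used Python 3.11.15 with scipy 1.17.1, pandas 2.3.3 and numpy 2.4.6, and figures matplotlib 3.10.9.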

Additional observations from a re-analysis of the deposited data

Results flagged for a closer look

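The doxycycline change of the E2F1 line differed from that of the EV line, by a test of the difference itself, for 2 of the 8 genes at 6 h (all genes, 22.2% higher and 12.3% lower) and 6 at 12 h (27.3% and 23.3%). At 6 h the log2 differences, E2F1 minus EV, were -0.49 for Mmp14 and -0.66 for Timp3; leaving out 1 library ended the Mmp14 call in 5 cases and the Timp3 call in 6. At 12 h they were -1.02 for Adamts1, -0.77 for Mmp2, -1.17 for Mmp14, 0.83 for Timp1, -0.62 for Timp2 and -1.55 for Timp3.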

How the results depend on the processing

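Of 66 called gene changes, 901 values came from the alternatives: 842 kept direction and call, 56 kept direction and lost the call (37 of them on leaving out 1 library), and 3 turned. Of 31 changes not called, 28 of 434 values passed the threshold and 17 turned. A log2 change stays the same by construction with a mean of at least 500, the replicate block or p at most 0.01. It also does with only the groups compared or without the 2 h libraries. Direction could not turn in these, so the values that kept it include ones that could not change. The values that turned at 2 h of serum were Mmp2 (0.24 to -0.30 with quantile normalization and -0.14 with equal totals) and Mmp14 (0.53 to -0.006 with quantile normalization). Among changes not called, quantile normalization gave -0.16 for Mmp14 and -0.101 for Timp3 at 6 h of serum and -0.074 for Adamts2 in the E2F1 minus EV difference at 12 h. Equal totals gave -0.011 for Mmp14 and -0.007 for Timp3 at 6 h, and -0.053 for Timp2 at 12 h of serum. The cause was not tested.

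Leaving out 1 library each gave ranges that crossed 0 for Adamts1 (-0.376 to 0.081) and Adamts5 (-0.059 to 0.335) at 6 h and Timp1 (-0.101 to 0.002) at 12 h of doxycycline in the EV line. The same held for Adamts2 at 2 h (-0.19 to 0.14) and Timp3 at 6 h of serum (-0.13 to 0.55), Adamts2 in the 12 h difference between the lines (-0.027 to 0.301) and Adamts5 between the lines at 0 h (-0.11 to 0.29). A library left alone in its group was assumed to vary like the other groups.

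With quantile normalization 5.362% of all genes were called higher and 3.783% lower for EV doxycycline at 2 h. For the difference between the lines these shares were 18.45% and 23.05% at 6 h, and for the lines at 0 h 8.913% and 8.583%. Equal totals gave 5.88% and 2.168% for EV doxycycline at 2 h, and 18.75% and 20.08% for the 6 h difference. Shares are not given for p at most 0.01 or fits with fewer libraries, so those counts lack a background. The number of the 8 genes called moved by over 1.5 times in these cases. For E2F1 at 2 h it was 0, and 1 with only the groups compared. For E2F1 at 6 h it was 5, 2 with p at most 0.01, and 2 to 4 when 1 library was left out. For EV doxycycline it was 0 at 2 h, 1 with quantile normalization and 1 with equal totals, and 0 to 1 with 1 library left out; at 12 h it was 0, and 0 to 2 with 1 library left out. For the difference between the lines at 6 h it was 2, but 4 with quantile normalization, 4 with equal totals, 1 without the 2 h doxycycline libraries, 1 without all 2 h libraries, 0 with p at most 0.01 and 0 to 2 with 1 library left out. Between the lines at 0 h it was 0, 1 with quantile normalization, and 0 to 1 with 1 library left out.

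The replicate block left the calls of the genes as they were in the comparisons reported gene by gene, and took the serum against doxycycline count at 2 h from 7 to 6. Over 55 pairs of groups the correlation of the deviations of same-numbered libraries ran from -0.28 to 0.45, with a median of 0.03; 18 were over 0.1. Among the 0, 6 and 12 h doxycycline groups of a line it was higher, 0.14 to 0.36 in the E2F1 line and 0.30 to 0.45 in the EV line, a hint from the data and not the design. Mmp14 at 12 h of doxycycline in the EV line (0.35) was called neither with the replicate block nor without it.

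In simulated data for serum at 2 h, 11 of 50 genes changed 1.5-fold were called. Far fewer genes were changed there than were called in the data (37.5% higher and 33.5% lower), and 1 dispersion was set for all genes. The adjusted threshold is therefore easier to pass in the data, and the simulated rates do not carry over. In the data Mmp2 was called at 0.24 on the log2 scale. Depth is unknown for values already scaled.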

Other observations

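Adamts1 and Adamts5 neighbour each other on chromosome 16, with 1 annotated gene between them, the non-coding 4930556C24Rik, and 4 other genes of the table within 1 megabase. At 2 h of serum the log2 change was -4.52 for Adamts1 and -6.03 for Adamts5. It was 0.08 for Atp5j, -0.25 for Gabpa, 0.37 for App, the amyloid precursor protein gene, and -0.05 for Gm6278 (adjusted p = 0.4208, 0.03744, 0.001155 and 0.8845, limma). At 12 h App was at -0.42 both with serum and with E2F1, and Atp5j at 0.32 with serum and 0.60 with E2F1.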
